A study of Mus musculus with 10 samples.

Results

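Transcripts of 10 genes that mark neutrophils and their granules were followed in aortas of 5 ApoE knockout and 5 ApoE/IL-17 double knockout mice. The genes are S100a8, S100a9, Retnlg, Csf3r, Cxcr2, Ngp, Camp, Ltf, Elane and Mpo. They were chosen by symbol, and each had a single probe set with 1 gene symbol on the array, so all 10 were measured among the 22180 genes tested. Both groups lacked ApoE, which clears remnant lipoproteins from plasma, and the second group also lacked the cytokine IL-17. All mice were males on a C57BL/6 background that started a high fat diet at 8 weeks of age, ate it for 3 weeks, and gave their aortas at 11 weeks. The double knockout came from crossing IL-17-/- animals into the ApoE-/- line, and both deletions affect the whole body. The ApoE knockout arrays carry a protocol text that describes wild-type and caspase-1 deficient animals and not IL-17, so a difference in handling or array run cannot be told apart from genotype.

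Neutrophils mature in the bone marrow in steps, and each step leaves its own set of proteins in the cell. Promyelocytes make the contents of the primary (azurophil) granules, such as myeloperoxidase and neutrophil elastase. Myelocytes and metamyelocytes make those of the secondary (specific) granules, such as lactoferrin and cathelicidin, and the mature cell that leaves for the blood expresses receptors for G-CSF and for CXC chemokines along with large amounts of S100a8 and S100a9. IL-17 is known for inducing G-CSF and CXC chemokines in stromal cells, which promote the production and recruitment of neutrophils. In hyperlipidemic mice, neutrophils are known to enter the early arterial lesion.

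The 10 genes lie on 7 chromosomes, with neighbors in 2 places. S100a8 and S100a9 have start sites 26.65 kb apart on chromosome 3 with 0 protein-coding genes listed between them. Camp, Ngp and Ltf lie on chromosome 9, and Camp and Ltf, the outer pair, are 1170 kb apart with 29 protein-coding genes between them, Ngp among these. Because both sets moved together between aortas, the 250 bases before each of these start sites are shown (RefSeq, build GRCm38.p6, written from 5′ to 3′ on the strand of the gene). Capitals mark matches to TTNNGCAA, a form of the C/EBP motif, to GAGGAA, a core of the PU.1 motif, and to TATAAA, the TATA box, on either strand. C/EBP factors and PU.1 are the main transcription factors of granulocyte genes. The windows are chr3:90668821-90669070, plus strand for S100a8, chr3:90695722-90695971, minus strand for S100a9, chr9:110419558-110419807, plus strand for Ngp, chr9:109849457-109849706, minus strand for Camp and chr9:111019042-111019291, plus strand for Ltf.
S100a8: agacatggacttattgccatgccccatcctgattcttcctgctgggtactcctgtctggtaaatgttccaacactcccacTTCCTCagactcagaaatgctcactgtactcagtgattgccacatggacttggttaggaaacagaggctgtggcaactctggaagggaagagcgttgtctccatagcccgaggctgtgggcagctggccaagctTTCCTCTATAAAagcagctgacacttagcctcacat
S100a9: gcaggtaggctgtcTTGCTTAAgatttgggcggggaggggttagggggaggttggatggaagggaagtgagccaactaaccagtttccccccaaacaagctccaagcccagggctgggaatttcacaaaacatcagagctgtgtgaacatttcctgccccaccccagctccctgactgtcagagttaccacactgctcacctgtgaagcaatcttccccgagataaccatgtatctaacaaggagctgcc
Ngp: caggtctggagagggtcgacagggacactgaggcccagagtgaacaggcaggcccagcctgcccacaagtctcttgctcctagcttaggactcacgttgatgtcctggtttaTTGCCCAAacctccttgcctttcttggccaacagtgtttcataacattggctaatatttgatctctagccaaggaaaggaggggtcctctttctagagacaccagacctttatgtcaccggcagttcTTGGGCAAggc
Camp: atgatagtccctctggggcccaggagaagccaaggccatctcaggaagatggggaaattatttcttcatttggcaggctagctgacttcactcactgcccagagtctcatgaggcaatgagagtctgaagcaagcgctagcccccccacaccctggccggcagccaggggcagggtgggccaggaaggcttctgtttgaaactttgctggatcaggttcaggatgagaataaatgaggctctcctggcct
Ltf: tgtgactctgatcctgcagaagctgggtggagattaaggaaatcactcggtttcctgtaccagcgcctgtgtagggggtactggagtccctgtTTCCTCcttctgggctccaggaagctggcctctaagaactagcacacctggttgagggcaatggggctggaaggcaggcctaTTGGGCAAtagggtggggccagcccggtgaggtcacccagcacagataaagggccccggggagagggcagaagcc

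S100a8 holds a TATA box 30 bases before its start site, next to a GAGGAA match that begins at 36 bases. Ngp has TTNNGCAA matches that begin 138 and 11 bases upstream, Ltf has one at 75 bases, and S100a9 has one at 236 bases. Camp holds none of the 3 motifs in this window. Over the 10 genes, TTNNGCAA was found in 4 windows, GAGGAA in 6 and TATAAA in 1, and 0 of the 14 matches overlapped another. Of 32851 RefSeq promoter windows of this length, 9.56% hold TTNNGCAA, 23.3% hold GAGGAA and 12.4% hold TATAAA. These matches describe the sequence and were not measured as binding.

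Values are log2 signals of a probe set, and differences are double knockout minus ApoE knockout, so a difference of 1 is a doubling of signal on this scale. Low signals do not separate expression from background. Genes of olfactory, vomeronasal and taste receptors, 1428 in all, served as a gauge of dim signal, and the 95th percentile of their mean levels, 5.80, is called the dim level here. The labelled tissue was borne out by its markers, with Acta2, the actin of smooth muscle, at means of 13.40 and 13.52 and Myh11, smooth muscle myosin, at 12.27 and 12.66 in the ApoE and double knockout groups.

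Of the 10 neutrophil genes, 5 fell in the double knockout aortas (S100a8, S100a9, Retnlg, Csf3r and Cxcr2), 1 rose (Mpo) and 4 did not pass an adjusted p of 0.05 (Ngp, Camp, Ltf and Elane). Over all 22180 genes, limma called 7.53% lower and 22.8% higher, 30.3% in all. The median log2 change of the 10 genes was -0.999, and that of all genes 0.10. After quantile normalization 6 of the 10 were lower and 1 higher, where 20.1% of all genes were called in either direction. The groups did not overlap for 4 genes that were lower and 1 that was higher, where 4.8% and 15.6% of all genes were separated in these directions. In bulk tissue, fewer neutrophils and less of each RNA per neutrophil cannot be told apart.

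**Figure D1:**
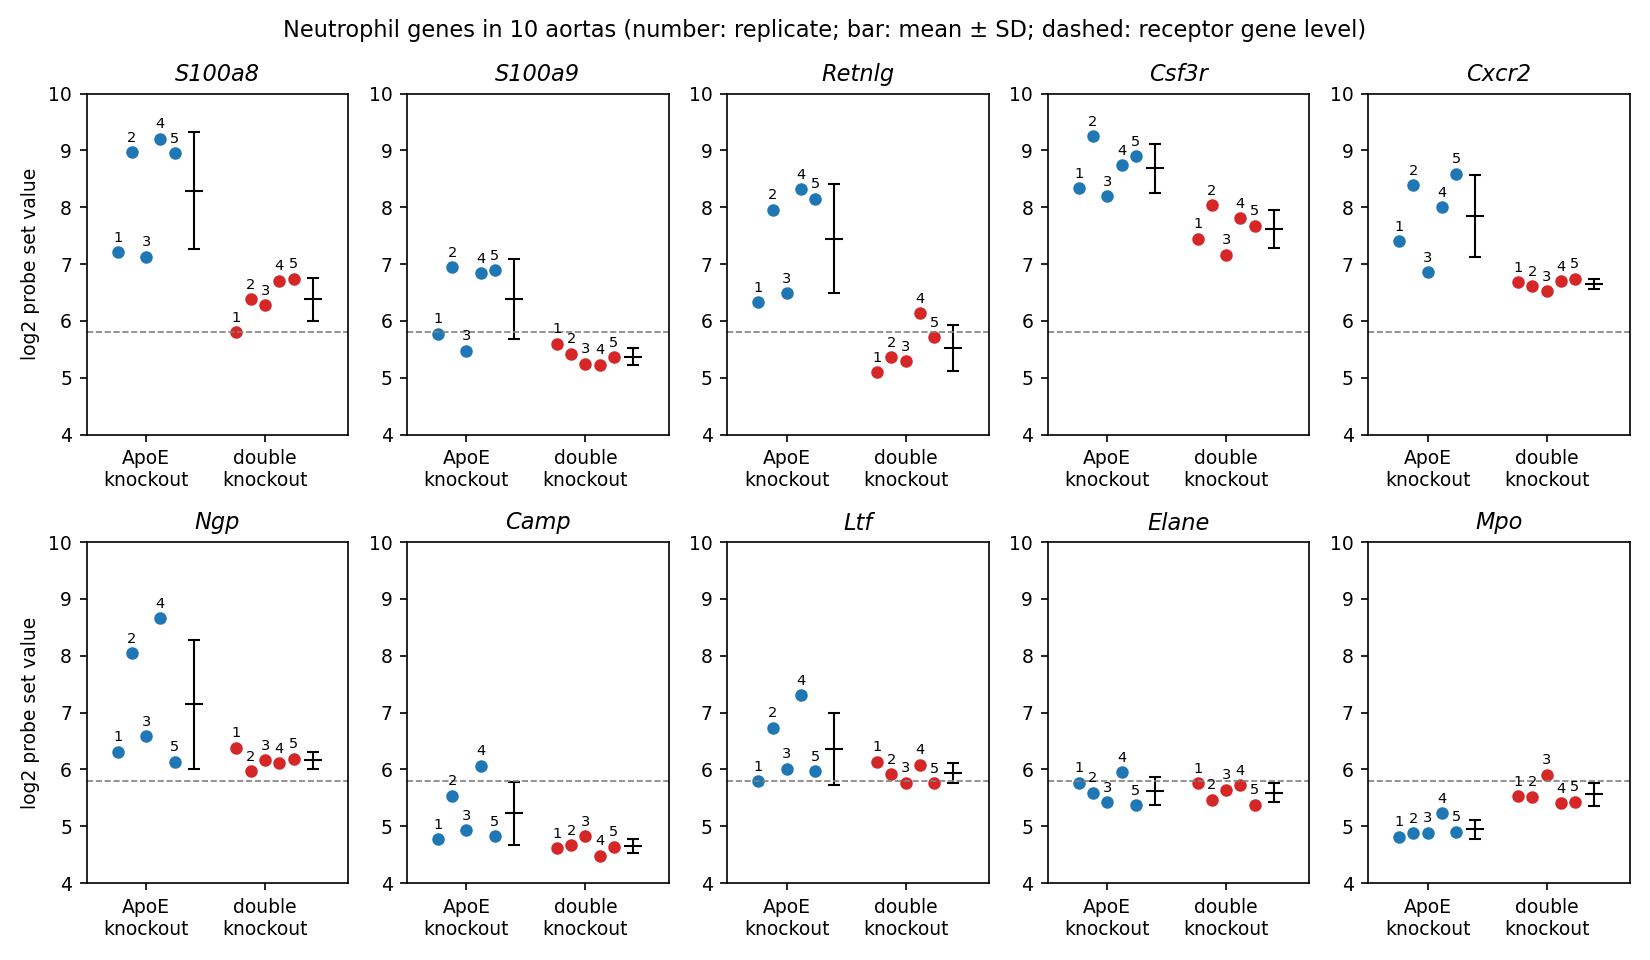
Log2 probe set values of the 10 neutrophil genes in each aorta, with ApoE knockout in blue, double knockout in red, replicate numbers above the points, and the mean and SD of each group (n = 5) beside them. The dashed line is the dim level of 5.80, and the ApoE knockout values of S100a8 split into replicates 1 and 3 near 7 and replicates 2, 4 and 5 near 9.

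S100a8 and S100a9 form the heterodimer calprotectin, a calcium and zinc binding alarmin that makes up much of the neutrophil cytosol. S100a8 stood at 7.21, 8.97, 7.13, 9.20 and 8.95 in ApoE knockout replicates 1 to 5, and at 5.80, 6.38, 6.28, 6.71 and 6.74 in double knockout replicates 1 to 5. Every double knockout aorta lay below every ApoE knockout aorta, and ApoE knockout replicates 2, 4 and 5 stood well above replicates 1 and 3. The fall was 3.76-fold with a 95% confidence interval of 2.01 to 7.04-fold (log2 change -1.91, SE 0.41, limma adjusted p = 0.0066, n = 5 per group).

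S100a9 showed the same division among the ApoE knockout aortas. Its values were 5.78, 6.95, 5.48, 6.84 and 6.89 in the ApoE knockout and 5.60, 5.42, 5.25, 5.23 and 5.36 in the double knockout. The groups overlapped, since ApoE knockout replicate 3 lay below double knockout replicate 1. The gene fell 2.02-fold (log2 change -1.01, SE 0.27, limma adjusted p = 0.017). All 5 double knockout values and ApoE knockout replicates 1 and 3 were below the dim level, so background may limit this fold.

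Retnlg encodes resistin-like gamma, a secreted protein made by maturing and blood neutrophils. Its ApoE knockout values were 6.33, 7.96, 6.49, 8.32 and 8.15, and its double knockout values 5.10, 5.36, 5.29, 6.13 and 5.72. The groups did not overlap, and replicates 2, 4 and 5 were again the high ones. Retnlg fell 3.80-fold (interval 2.09 to 6.91-fold, log2 change -1.93, SE 0.39, limma adjusted p = 0.0049). The double knockout mean of 5.52 and 4 of the 5 values lay below the dim level, so background may limit this fold too.

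The receptor genes fell together, and no aorta of either group was at the dim level for them. Csf3r encodes the receptor for G-CSF, the growth factor that drives neutrophil production. It stood at 8.34, 9.25, 8.20, 8.74 and 8.90 in the ApoE knockout and at 7.44, 8.03, 7.17, 7.80 and 7.67 in the double knockout. These groups were separate, although ApoE knockout replicate 3 exceeded double knockout replicate 2 by a narrow margin. Csf3r fell 2.09-fold (log2 change -1.06, SE 0.21, limma adjusted p = 0.0041).

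Cxcr2 encodes the chemokine receptor through which neutrophils leave the marrow and enter inflamed tissue. Its ApoE knockout values were 7.40, 8.39, 6.85, 8.00 and 8.59, and its double knockout values 6.68, 6.61, 6.52, 6.69 and 6.75. All 5 double knockout aortas lay within 0.23 of each other, while the ApoE knockout aortas spanned 1.74. Cxcr2 fell 2.29-fold (log2 change -1.20, SE 0.27, limma adjusted p = 0.0087).

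Ngp, Camp and Ltf, of the secondary granules, followed another pattern among the ApoE knockout aortas. It was not shared by all granule genes. Mmp8 and Pglyrp1, picked from the other granule genes after their values were seen, were high in replicates 2, 4 and 5. Lcn2, picked in the same way, was highest in replicates 2 and 4. Ngp, neutrophilic granule protein, a cystatin-related protein of these granules, stood at 6.31, 8.04, 6.58, 8.66 and 6.13 in the ApoE knockout and at 6.38, 5.96, 6.17, 6.11 and 6.19 in the double knockout. Replicates 2 and 4 were high, whereas replicate 5, which was high in S100a8, S100a9, Retnlg, Csf3r and Cxcr2, lay within the double knockout range. The log2 change was -0.98 (SE 0.43, interval -1.93 to -0.04, limma adjusted p = 0.10), and Ngp passed without ApoE knockout replicate 5 (-1.24, adjusted p = 0.048) or with arrays centred on their medians (adjusted p = 0.048).

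Camp encodes the cathelicidin precursor, from which an antimicrobial peptide is cleaved. It stood at 4.77, 5.54, 4.93, 6.06 and 4.83 in the ApoE knockout and at 4.61, 4.67, 4.83, 4.49 and 4.64 in the double knockout. Of these values, ApoE knockout replicate 4 alone exceeded the dim level, and replicates 2 and 4 were again highest. The log2 change of -0.58 did not pass as deposited (SE 0.22, limma adjusted p = 0.067). It passed after quantile normalization (-0.84, adjusted p = 0.019), with arrays centred on their medians (adjusted p = 0.018), with array weights (adjusted p = 0.048), and without ApoE knockout replicate 1 (adjusted p = 0.040) or replicate 5 (adjusted p = 0.047).

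Ltf encodes lactoferrin, the iron-binding protein of secondary granules. Its values were 5.80, 6.74, 6.01, 7.30 and 5.97 in the ApoE knockout and 6.13, 5.92, 5.77, 6.08 and 5.76 in the double knockout. Replicates 2 and 4 were the high ones here too, and the remaining 3 ApoE knockout aortas lay within the double knockout range. The log2 change was -0.43 (SE 0.25, interval -0.98 to 0.12, limma adjusted p = 0.21), and it was 0.0073 without ApoE knockout replicates 2 and 4.

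Elane and Mpo, of the primary granules, were highest in ApoE knockout replicate 4, as Ngp, Camp and Ltf were, but replicate 2 did not stand out with it. Elane, neutrophil elastase, stood at 5.77, 5.59, 5.43, 5.96 and 5.37 in the ApoE knockout and at 5.75, 5.47, 5.64, 5.72 and 5.38 in the double knockout. The groups covered nearly the same range, and ApoE knockout replicate 4 alone was above the dim level. Its log2 change was -0.03 (SE 0.12, interval -0.30 to 0.24, limma adjusted p = 0.87), and the sign turned when ApoE knockout replicate 1 (0.0071) or 4 (0.054), or double knockout replicate 2 (0.0024) or 5 (0.023), was left out.

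Mpo, the myeloperoxidase that forms hypochlorous acid, stood at 4.81, 4.88, 4.89, 5.24 and 4.91 in the ApoE knockout and at 5.53, 5.52, 5.91, 5.41 and 5.43 in the double knockout. Every double knockout value was above every ApoE knockout value, and 9 of the 10 values lay below the dim level. Mpo was 1.53-fold higher (log2 change 0.61, SE 0.11, limma adjusted p = 0.0027), and 0.36 on the log2 scale after quantile normalization (adjusted p = 0.037). Of the 1428 receptor genes used as a gauge, 425 were called higher and 12 were called lower. Their median log2 change was 0.29, and 217 had a larger change than Mpo. The part of such dim signal in the Mpo result was not tested. After quantile normalization that median was 0.06.

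**Figure D2:**
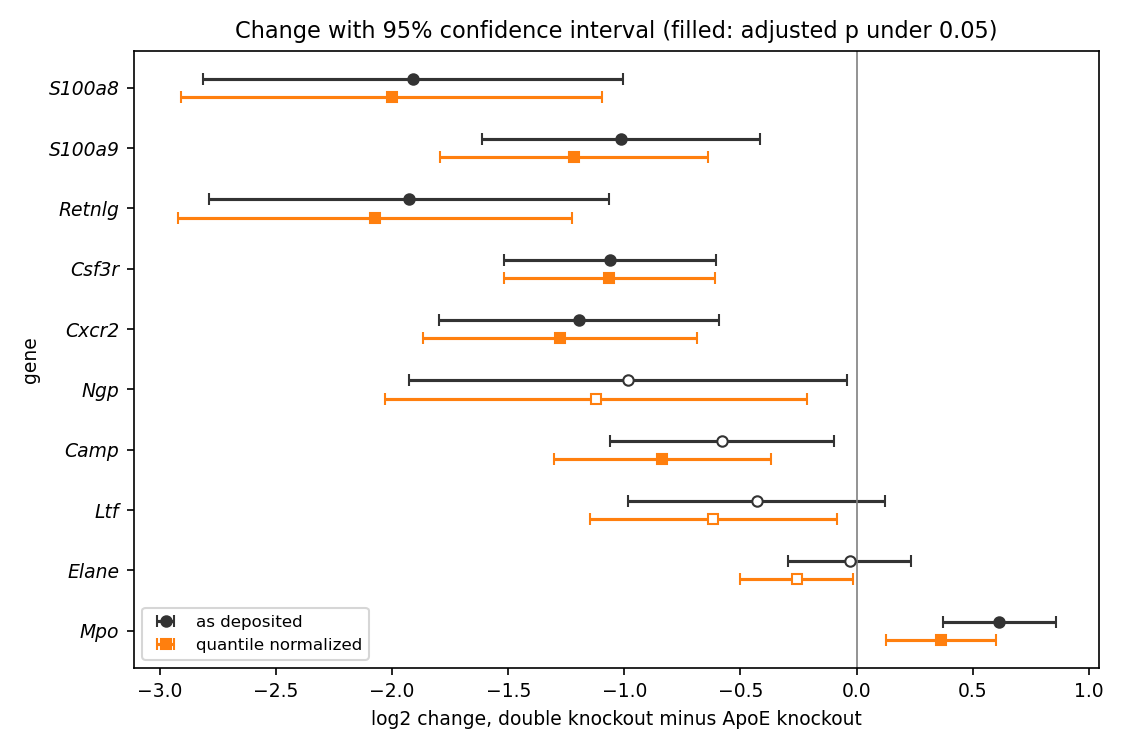
Log2 change of each gene (double knockout minus ApoE knockout, n = 5 per group) with its 95% confidence interval from limma, from deposited values (circles) and after quantile normalization (squares), filled where the adjusted p is under 0.05. S100a8, S100a9, Retnlg, Csf3r and Cxcr2 lie below 0 under both, Camp passes after quantile normalization only, and Mpo lies above 0.

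Spread among aortas was itself unequal. In 9 of the 10 genes the SD was larger in the ApoE knockout than in the double knockout, against 44.7% of all genes, and in 7 it was more than 2 times as large, against 10.2% of all genes. The ApoE knockout SD was 1.03 for S100a8, 0.96 for Retnlg and 1.13 for Ngp, where the median over all genes was 0.15, and only 0.171%, 0.271% and 0.117% of genes had a larger one. In the double knockout the SDs of S100a8 and Retnlg were 0.38 and 0.41, and that of Ngp was 0.15. Double knockout means of S100a9 (5.37), Retnlg (5.52) and Camp (4.65) lay below the dim level, and whether this narrowed their spread was not tested. Many of the 10 genes also varied together, so these counts are not independent.

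Deviations from the group means showed which genes varied together over the 10 arrays. Among Ngp, Camp and Ltf the 3 Pearson correlations ran from 0.90 to 0.95. Among S100a8, S100a9, Retnlg, Csf3r and Cxcr2 the 10 correlations ran from 0.70 to 0.97, with S100a8 and Retnlg highest. Between these sets they ran from 0.27 to 0.62. Correlations of Elane or Mpo ran from 0.42 to 0.67 with Ngp, Camp and Ltf, and from -0.28 to 0.25 with the alarmin and receptor genes. Elane and Mpo correlated with each other at 0.40. All of them come from the same 10 arrays and mostly reflect the 5 ApoE knockout aortas, so they describe these arrays.

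**Figure D3:**
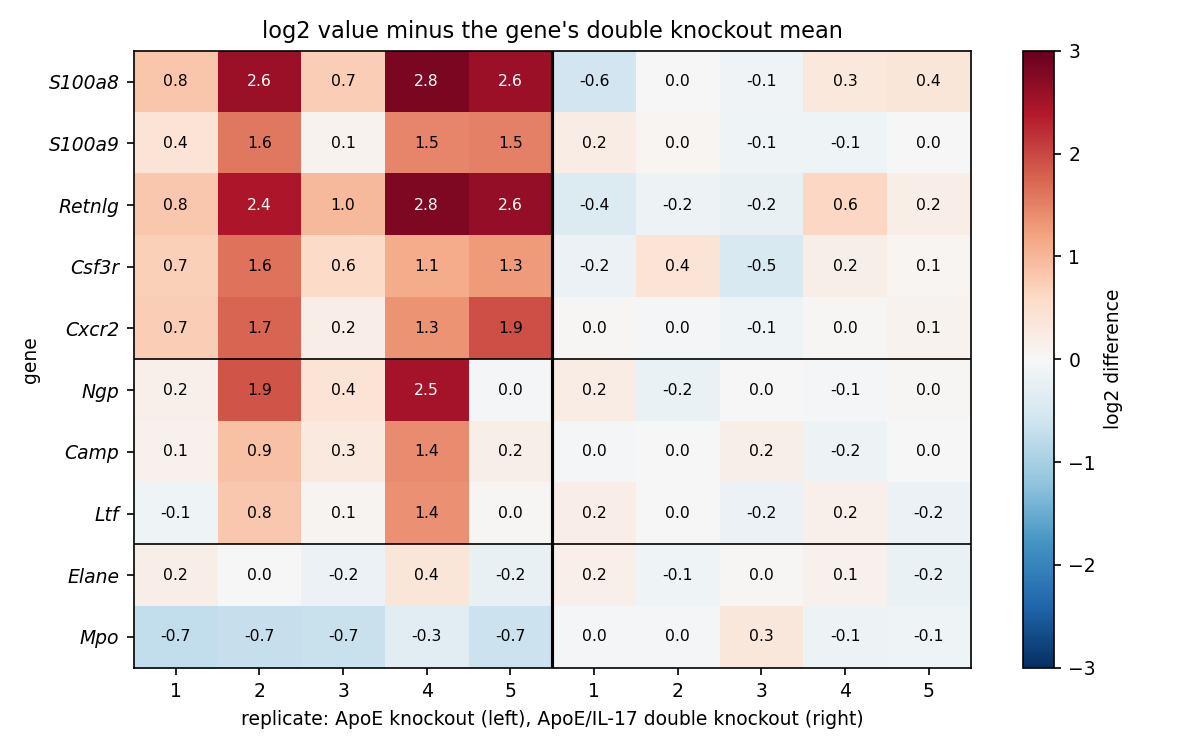
Heat map of the log2 value of each gene in each array minus the mean of that gene over the double knockout arrays, with lines between the alarmin and receptor genes, the secondary granule genes and the primary granule genes. ApoE knockout replicates 2, 4 and 5 stand out in the upper block and replicates 2 and 4 in the middle block.

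Without ApoE knockout replicates 2 and 4, a choice made after seeing the values, S100a8 (log2 change -1.38, limma adjusted p = 0.043), Retnlg (-1.47, adjusted p = 0.035) and Csf3r (-0.86, adjusted p = 0.027) remained lower. S100a9 (-0.67, adjusted p = 0.11) and Cxcr2 (-0.96, adjusted p = 0.060) kept their direction but did not pass. In that fit, with 3 ApoE knockout aortas, 3.48% of all genes were called lower and 13.1% higher, 16.6% in all. Whether Ngp, Camp and Ltf changed less than the alarmin and receptor genes was not tested.

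Of 98 other genes of the neutrophil program, on 5 further lists, 19 fell and 13 rose, where 7.53% of all genes were called lower and 22.8% higher. The rises were thus fewer than that share would give and are no result about these genes. The median change of the 98 was -0.19, against 0.10 for all genes. After quantile normalization 25 fell and 6 rose, where 11.2% of all genes were called lower and 8.94% higher. Without ApoE knockout replicates 2 and 4, 6 fell and 9 rose, where 3.48% and 13.1% of all genes did. The lists held other granule genes, surface and activation genes, late transcripts, transcription factors of granulocytes, and attractants with growth factors. The shares of all genes in each fit also stand beside the counts of each list below.

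Among surface and activation genes, 6 of 27 fell (against 7.53% of all genes), 3 rose (against 22.8%) and 18 did not pass (median -0.39). After quantile normalization 8 fell and 1 rose, and without ApoE knockout replicates 2 and 4, 0 fell and 1 rose in limma. Ly6g, the antigen by which mouse neutrophils are sorted, stood at 5.16, 7.21, 5.42, 7.23 and 7.02 in the ApoE knockout and at 4.85, 4.61, 4.62, 5.02 and 4.88 in the double knockout. The high aortas were replicates 2, 4 and 5, as for S100a8, and the groups did not overlap. Ly6g fell 3.06-fold (log2 SE 0.39, limma adjusted p = 0.011), to a double knockout mean below the dim level. Without ApoE knockout replicates 2 and 4 its log2 change was -1.07 (adjusted p = 0.066). Itgal, the alpha chain of the integrin LFA-1 of all leukocytes, fell 1.89-fold (SE 0.23, adjusted p = 0.013), and Cd33, a sialic acid receptor of myeloid cells, 1.44-fold (SE 0.13, adjusted p = 0.014). Tlr4, the receptor for lipopolysaccharide that vessel cells also express, rose 1.23-fold (SE 0.07, adjusted p = 0.010). Itgb2, the shared beta chain of leukocyte integrins, had a log2 change of -0.49 (SE 0.32, adjusted p = 0.25), and Ceacam1, an adhesion receptor, one of -0.34 (SE 0.14, adjusted p = 0.091). Without ApoE knockout replicates 2 and 4, Itgal, Cd33 and Tlr4 kept their direction but did not pass (adjusted p = 0.067, 0.071 and 0.052).

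In the late transcript list 9 of 22 fell (against 7.53% of all genes), 5 rose (against 22.8%) and 8 did not pass (median -0.25). As deposited, the rises were close to that share. After quantile normalization 9 fell and 4 rose, where 11.2% and 8.94% of all genes did. In the fit without ApoE knockout replicates 2 and 4, 4 fell and 6 rose, where 3.48% and 13.1% of all genes did. Mxd1, a Myc antagonist induced in maturing granulocytes, fell 1.62-fold (SE 0.15, limma adjusted p = 0.0056). Msrb1, a methionine sulfoxide reductase found in many cell types, rose 1.38-fold (SE 0.07, adjusted p = 0.0014), and Stfa1, a stefin, rose 1.64-fold to a mean below the dim level. Osm, the cytokine oncostatin M, rose 1.31-fold (SE 0.07, adjusted p = 0.0028), but did not pass once arrays were quantile normalized (adjusted p = 0.096). Every ApoE knockout value of Osm lay below the dim level. S100a11 and G0s2 had log2 changes of 0.08 and 0.04 (adjusted p = 0.42 and 0.84). The related stefin gene Stfa2l1 and Il1b were chosen after their values were seen. Stfa2l1 fell 2.20-fold (adjusted p = 0.026), with both means below the dim level (5.26 and 4.12), so background may limit this fold. Its ApoE knockout values of 4.48, 6.23, 4.26, 5.58 and 5.75 were again highest in replicates 2, 4 and 5. Il1b fell 2.50-fold (adjusted p = 0.0090). Stfa2l1 did not pass without ApoE knockout replicates 2 and 4 (adjusted p = 0.14). Stefin genes are near-identical copies, so their signals may be shared.

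Of 24 other granule genes, 3 fell (against 7.53% of all genes), 3 rose (against 22.8%) and 18 did not pass (median -0.16). After quantile normalization 5 fell and 0 rose, and without ApoE knockout replicates 2 and 4, 1 fell and 1 rose. Mmp9, the gelatinase of tertiary granules, fell 1.41-fold (SE 0.11, limma adjusted p = 0.0071). Slpi, an inhibitor of elastase, fell 1.67-fold (SE 0.20, adjusted p = 0.017), and did not pass without ApoE knockout replicates 2 and 4 (adjusted p = 0.092). Ctsg, the primary granule protease cathepsin G, and Arg1, arginase, rose 1.28-fold and 1.40-fold (adjusted p = 0.027 and 0.0096), but neither passed after quantile normalization (adjusted p = 0.58 and 0.14). Ctsg lay below the dim level in every array, and Arg1 in every ApoE knockout array. Lyz2, the lysozyme of macrophages and neutrophils, had a log2 change of -0.25 (SE 0.16, adjusted p = 0.27), and Anxa1, annexin A1, one of 0.03 (SE 0.12, adjusted p = 0.88).

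Of the 12 granulocyte transcription factors, 0 passed in limma as deposited, 2 had an unadjusted p under 0.05, and 1 fell after quantile normalization. Their median change was -0.22. Stat3, which signals downstream of the G-CSF receptor, had a log2 change of -0.14 (SE 0.08, limma adjusted p = 0.18), and Klf4, a factor of monocytes and vessel cells, one of -0.17 (SE 0.15, adjusted p = 0.40).

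Among attractants and growth factors for neutrophils, 1 of 15 fell, 3 rose and 11 did not pass (median 0.17). These counts are close to the shares of all genes, 7.53% lower and 22.8% higher, and are no result about the list. After quantile normalization 2 of the 15 fell and 2 rose, where 11.2% and 8.94% of all genes did. Ppbp, a platelet chemokine that acts on the Cxcr2 receptor, fell 2.60-fold (SE 0.12, limma adjusted p = 6.6e-05). Cxcl2, another ligand of that receptor, rose 1.61-fold (SE 0.15, adjusted p = 0.0069), as did Csf2, the growth factor GM-CSF, at 1.54-fold (SE 0.11, adjusted p = 0.0026). The ApoE knockout mean of Csf2, 5.65, lay below the dim level. Lif, a cytokine of the interleukin 6 family, rose 1.23-fold, but did not pass once arrays were quantile normalized (adjusted p = 0.26). Cxcl12, the marrow retention chemokine, had a log2 change of -0.06 (SE 0.08, adjusted p = 0.63), and Csf1, the macrophage growth factor, one of -0.10 (SE 0.08, adjusted p = 0.37).

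**Figure D4:**
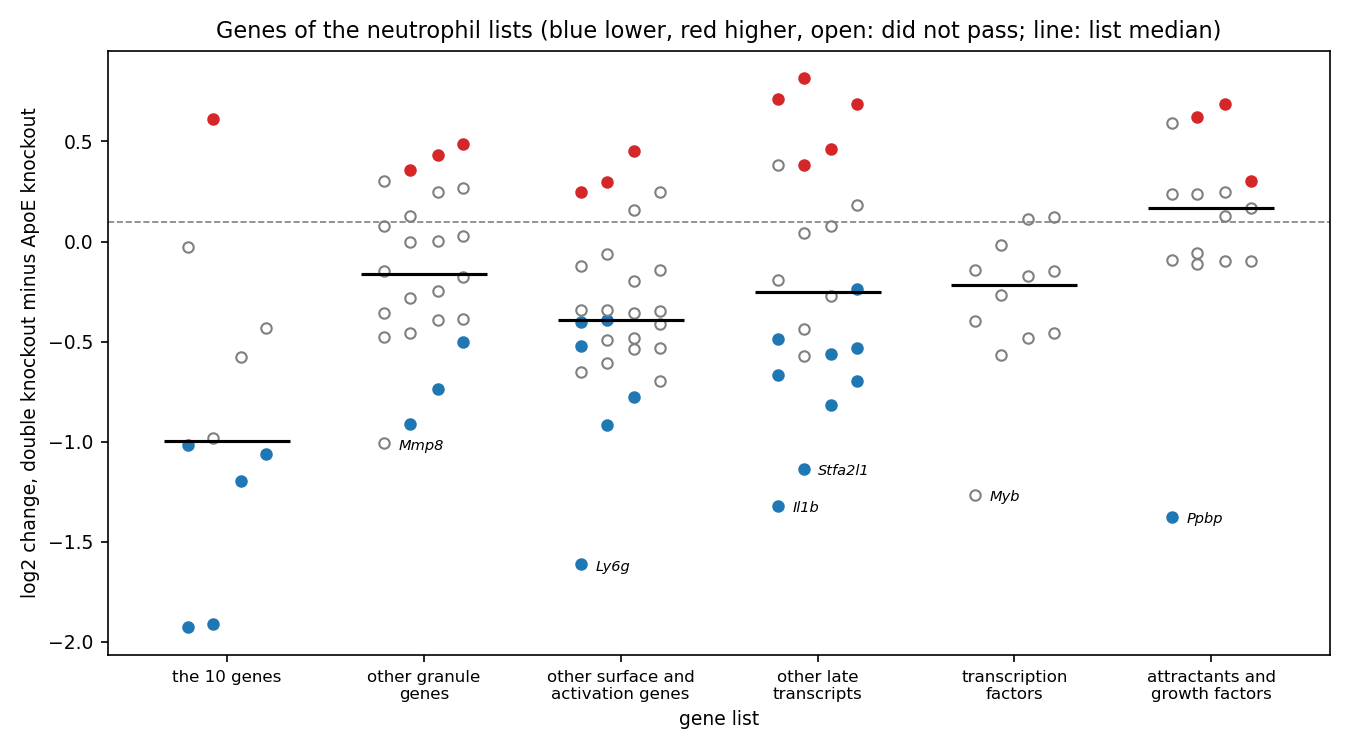
Log2 change (double knockout minus ApoE knockout) of each gene of the neutrophil lists, blue where lower, red where higher and open where the adjusted p did not pass, with the median of each list as a line and that of all genes (0.10) dashed. Genes outside the 10 with a change beyond 1 in size are named, and Ly6g is the lowest of them at -1.61.

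Markers of several other blood and tissue cells were also lower in the double knockout, and their part in these results was not tested. The sources used here do not say whether the aortas were rinsed of blood. The counts below stand beside 7.53% of all genes called lower and 22.8% called higher. Of 10 measured red cell genes 7 fell and 1 rose, and the mean level of the list was 8.81 to 9.30 in the ApoE knockout and 7.08 to 7.55 in the double knockout. Of 12 platelet genes 11 fell and 1 rose (8.71 to 9.23 against 7.44 to 7.96). B cell markers fell in 5 of 11 (6.94 to 7.65 against 6.30 to 6.58), and in 8 after quantile normalization. Mast cell markers fell in 7 of 11 with 1 higher (6.41 to 7.08 against 5.91 to 6.23). T cell markers fell in 6 of 10 (6.57 to 8.79 against 6.08 to 7.20), but in 1 of 10 without ApoE knockout replicates 2 and 4. The single higher gene of the red cell list and of the mast cell list was not called after quantile normalization.

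Lists of myeloid and vessel wall cells were counted in the same way. Monocyte markers fell in 1 of 12 (8.80 to 8.95 against 8.47 to 9.07), or 2 after quantile normalization, and macrophage markers fell in 3 of 14 (9.48 to 9.88 against 9.17 to 9.80). Eosinophil and basophil markers rose in 3 of 10, but 9 of these 10 genes, Siglecf and Prg2 among them, lay below the dim level in both groups. After quantile normalization 0 of them were higher and 2 were lower. Smooth muscle markers rose in 4 of 10 (11.27 to 11.80 against 11.76 to 11.85), but in 0 without ApoE knockout replicates 2 and 4. Endothelial markers fell in 2 of 10 (10.08 to 10.36 against 9.86 to 10.25), with 1 after quantile normalization and 0 without those replicates. Fibroblast markers rose in 2 of 10 (11.33 to 11.45 against 11.36 to 11.74), close to the share of all genes.

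The order of the ApoE knockout aortas differed between these lists. Red cell genes were highest in replicates 5 (9.30) and 2 (9.27) and lowest in replicate 1 (8.81), but Bpgm, a gene singled out after its values were seen, set this order. Without it replicate 2 (9.49) was highest and replicate 3 (8.89) lowest. T cell markers were high in replicates 2 (8.79), 3 (8.37) and 4 (8.18) and low in replicates 1 (7.15) and 5 (6.57). Platelet, mast cell and B cell lists were highest in replicate 1 (9.23, 7.08 and 7.65), an aorta that was low in S100a8 and Retnlg. The highest and the lowest aorta of the T cell, platelet, mast cell and B cell lists were the same whichever single gene of the list was left out.

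**Figure D5:**
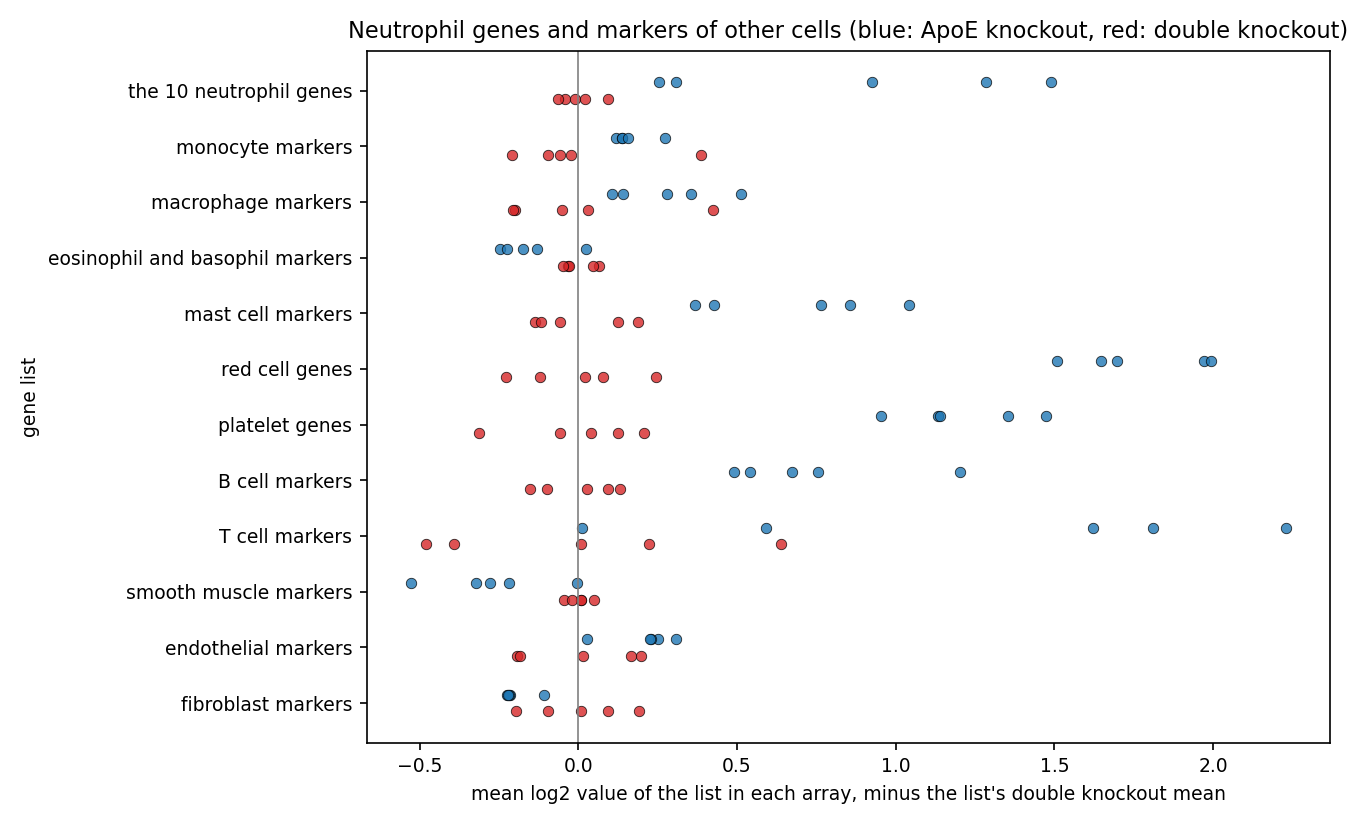
Mean log2 value of each gene list in each array minus the double knockout mean of the list, with ApoE knockout in blue and double knockout in red. The 10 neutrophil genes show 3 ApoE knockout aortas apart from the other 2, while red cell and platelet genes are high in all 5.

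Genes outside the 10 that varied most like S100a8 and S100a9 were sought among 13492 genes above the dim level, by the Pearson correlation of their deviations from the group means with the averaged deviations of this pair over the 10 arrays. The 6 highest were Evi5 (0.92), Serpina1d (0.92), Slc35e1 (0.92), Mrgprg (0.90), Gm960 (0.90) and D030028A08Rik (0.89). These 6 genes are on none of the neutrophil lists, and their adjusted p ran from 0.13 to 0.72. The filter used the mean over the 10 arrays and left out Ly6g (group means 6.41 and 4.80), so its likeness was not ranked. The 6 genes therefore do not show that no neutrophil gene varied like this pair. Most varied over a narrow range, as Evi5 did from 7.94 to 8.25 in the ApoE knockout. Serpina1d, a liver-type serine protease inhibitor with near-identical copies, was the exception, at 4.94 to 8.05. For Mpo, the 3 highest of 22170 genes were Galntl6 (0.95), 9130024F11Rik (0.93) and Egr2 (0.91), of which Galntl6 alone was called, 1.41-fold higher, with both means below the dim level.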

How the data were processed

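Aortic RNA of 10 biological replicates, 5 per genotype, was measured on arrays (Affymetrix Mouse Gene 2.0 ST), and the labels do not say whether a replicate is 1 mouse. The deposited values are probe set signals on a log2 scale, and that base was inferred from their range. The submitters' processing notes name limma, with no role, and the sources used here do not state how signals were normalized or summarized. Of 41345 probe sets, 23521 have 1 gene symbol in the platform annotation, 1814 have several and 16010 are unnamed here. Where a gene had several probe sets (1082 genes) the brightest on average stood for the gene. No filter was applied. The double knockout was compared with the ApoE knockout by limma (version 3.58.1, R 4.3.3; lmFit, then eBayes) in a two-sided test without covariates. P-values were adjusted by Benjamini-Hochberg over all 22180 genes at a threshold of 0.05, and the code was tested on simulated data. Alternatives were quantile normalization, median centring, a filter on dim genes, other probe set and variance settings, a replicate block and leaving out arrays. Figures were drawn with matplotlib 3.10.9.

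Named genes are the 10 neutrophil genes, up to 4 called genes of smallest p and up to 2 others of highest level on each further neutrophil list, and those most like S100a8 with S100a9 or Mpo. Markers of other cells are given by counts, with Acta2, Myh11, Siglecf, Prg2 and Bpgm named. Outside this rule, Bpgm, Stfa2l1, Il1b, Pglyrp1, Mmp8, Slfn4, Lcn2 and Il1rn were named after their values were seen. The 10 genes and the lists were chosen with earlier results of these data known, and no list was tested as a set. The number of arrays limits the precision.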

Additional observations from a re-analysis of the deposited data

Results flagged for a closer look

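In 90 groups of 5 arrays (the 45 genes named by rule), 8 had a highest or lowest array set apart from the other 4. The limit was Dixon's criterion, which chance exceeds in about 1 of 20 groups. Mpo was flagged in both groups, with ApoE knockout replicate 4 at 5.24 against the next value of 4.91, and double knockout replicate 3 at 5.91 against 5.53. Among genes chosen for their likeness to Mpo over the same arrays, which fixes that they share its high arrays, 9130024F11Rik was highest in ApoE knockout replicate 4 (5.28) and Egr2 in double knockout replicate 3 (8.23). Double knockout replicate 3 was the lowest in Cxcl2 (6.21) and Msrb1 (10.07). ApoE knockout replicate 3 was lowest in Mmp9 (7.21), and ApoE knockout replicate 2 in Lif (5.87).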

How the results depend on the processing

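S100a8, Retnlg, Csf3r and Mpo kept their direction and their call under every alternative run for them. S100a9 and Cxcr2 also kept their direction, and lost their call only without ApoE knockout replicates 2 and 4. Of the 10 genes, 6 were lower after quantile normalization and 7 with arrays centred on their medians, where 11.2% and 25.4% of all genes were. With array weights 6 were lower (8.9% of all genes), and 5 to 7 when 1 array was left out (5.05% to 8.68%). Without ApoE knockout replicates 2 and 4, 3 were lower (3.48% of all genes). The count of higher genes fell to 0 when genes below the dim level were left out, with or without quantile normalization, since Mpo is among these. That choice also left Camp and Elane untested. Ltf turned to 0.0073 and Elane to 0.072 without ApoE knockout replicates 2 and 4, and Elane ran from -0.092 to 0.054 when 1 array was left out. Deviations of same-numbered arrays of the groups correlated from -0.13 to 0.26. Arrays of different numbers were not compared, so whether the replicate numbers pair the arrays was not tested. With the replicate number as a block, 5 of the 10 genes were lower and 1 higher, as without it. In that fit 28 of the 98 further neutrophil genes were lower, where 8.04% of all genes were lower and 21.7% higher.

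Of those 98 genes, 40 were lower with centred arrays and 6 without ApoE knockout replicates 2 and 4, where 25.4% and 3.48% of all genes were. When 1 array was left out, 13 to 32 were lower (5.05% to 8.68% of all genes). The 32 came without double knockout replicate 2 (8.68%). The count of higher ones was 6 after quantile normalization and 5 with centred arrays, where 8.94% and 7.52% of all genes were higher. It was 8 without dim genes (14.8% of the genes kept) and 5 with both of quantile normalization and that filter (11%). Over all genes, 75.1% of calls were higher as deposited, 44.4% after quantile normalization (1982 higher) and 22.8% with centred arrays (5641 lower, 1669 higher). Higher calls numbered 2003 without dim genes and 1489 with quantile normalization as well. Without ApoE knockout replicates 2 and 4 there were 772 lower and 2902 higher. The median change of all genes was 0.10 as deposited, -0.02 after quantile normalization and -0.11 with centred arrays. Signals near the dim level limit what can be said of Camp, Elane, Mpo and the double knockout values of S100a9 and Retnlg.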

Other observations

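Of 4 further neutrophil genes chosen after their values were seen, Mmp8 and Slfn4 were high in the same ApoE knockout aortas as S100a8. Mmp8, the collagenase of secondary granules, stood at 6.52, 8.04, 6.70, 8.30 and 7.84 in ApoE knockout replicates 1 to 5 and from 5.79 to 7.27 in the double knockout (log2 change -1.01, SE 0.37, limma adjusted p = 0.058). Slfn4, a Schlafen gene of myeloid cells, stood at 6.35, 7.53, 6.08, 6.81 and 7.37 against 5.68 to 6.25 (log2 change -0.82, SE 0.26, limma adjusted p = 0.036), and did not pass without ApoE knockout replicates 2 and 4 (adjusted p = 0.16). In both, replicates 2, 4 and 5 were above replicates 1 and 3. Mmp8 thus differed from Ngp, Camp and Ltf, in which replicate 5 was not high. Lcn2, the neutrophil and epithelial siderophore-binding lipocalin, stood at 7.39, 8.14, 7.81, 8.12 and 7.53 in the ApoE knockout, highest in replicates 2 and 4 as Ngp was, and from 7.24 to 8.57 in the double knockout (log2 change 0.30, SE 0.24, limma adjusted p = 0.35). Il1rn, the interleukin 1 receptor antagonist, rose 1.76-fold (SE 0.21, adjusted p = 0.014) beside the fall of Il1b.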
